A study of Mus musculus with 6 samples.

Results

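Mitosis and kinetochore genes were followed in bulk RNA sequencing of newborn mouse epidermis, the outer layer of the skin. The 39 genes were named by function: cyclins and kinases of mitotic entry, the chromosomal passenger complex, the kinetochore, the spindle checkpoint, mitotic exit, kinesin motors, spindle and cytokinesis factors, and the chromosome and proliferation markers Top2a and Mki67. All 39 were among the 12894 genes of the deposited table, and all 39 passed the filter on low values. Their values did not choose them, but they were named with earlier results of these data known.

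The comparison was of 3 libraries labelled control and 3 labelled Hnrnpu knockout, each titled with an animal number of its own. Every animal was of strain C57BL/6 and at postnatal day 0. Control C216 has the genotype label "Wild type", while controls C241 and C250 have the label "Heterogenous". Libraries C217, C242 and C251 have the label "Hnrnpu knockout", made with a loxP-cre system. For the Cre driver, the deleted exons and any Cre in the controls, the labels give no statement. The sex-linked transcripts Xist and Ddx3y, given below, set C242 and C251 apart from C217 and all controls. Hnrnpu encodes a nuclear RNA- and DNA-binding scaffold protein. Hnrnpu itself stood at 1450.3, 1318 and 1159.9 normalized counts in controls C216, C241 and C250 and at 1565, 1342 and 1036 in C217, C242 and C251. The groups overlapped, with a log2 difference of -0.01 ± 0.20 (limma adjusted p = 0.976), so total transcript level did not check the labels, and C217, C242 and C251 are called knockout by label.

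In a dividing cell, cyclin A and cyclin B activate CDK1, the nuclear envelope breaks down, and kinetochores assembled on CENP-A chromatin capture spindle microtubules. Unattached kinetochores signal through TTK, BUB1, BUBR1, BUB3 and MAD2 to hold back CDC20 and the anaphase-promoting complex until every chromosome is attached. In stratified epidermis most divisions take place in the basal layer, and cells that leave it for the suprabasal layers stop dividing. Transcripts of these genes accumulate in G2 and M phase. Many of their promoters carry a cell cycle genes homology region (CHR), bound by the MuvB complexes, and upstream CCAAT boxes, bound by NF-Y.

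The promoters below belong to the 6 members past the threshold with the smallest adjusted p that have a RefSeq GRCm38.p6 entry, and they are shown because 5 of these genes fell and 1, Bub3, rose. Each line holds 120 bases before and 30 bases after the start of transcription, 5′ to 3′ on the gene's strand, and for Bub3 and Prc1 the first of 2 listed starts is shown. Capitals mark the CHR, spelled TTTGAA. They also mark a CHR variant with the letters TTCGAA, the CCAAT box, and an E2F-type variant, TTGGCGC. Each motif was searched on both strands, so a match on the other strand appears as its reverse complement, and none of the motifs contains another.
Ttk, chr9:83834569-83834718, plus strand: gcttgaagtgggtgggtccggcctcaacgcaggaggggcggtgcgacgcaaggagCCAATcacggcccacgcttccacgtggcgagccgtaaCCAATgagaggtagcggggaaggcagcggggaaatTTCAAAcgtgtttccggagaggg
Kif4, chrX:100625945-100626094, plus strand: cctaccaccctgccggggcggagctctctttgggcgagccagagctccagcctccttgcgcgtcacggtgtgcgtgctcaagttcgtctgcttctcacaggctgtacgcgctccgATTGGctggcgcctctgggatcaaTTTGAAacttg
Top2a, chr11:99024160-99024309, minus strand: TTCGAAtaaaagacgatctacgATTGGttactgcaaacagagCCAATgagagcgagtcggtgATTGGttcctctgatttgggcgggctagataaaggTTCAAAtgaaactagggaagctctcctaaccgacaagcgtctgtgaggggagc
Prc1, chr7:80294331-80294480, plus strand: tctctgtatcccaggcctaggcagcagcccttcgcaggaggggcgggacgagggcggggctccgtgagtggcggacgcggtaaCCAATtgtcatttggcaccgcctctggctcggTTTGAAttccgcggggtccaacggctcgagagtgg
Mki67, chr7:135716350-135716499, minus strand: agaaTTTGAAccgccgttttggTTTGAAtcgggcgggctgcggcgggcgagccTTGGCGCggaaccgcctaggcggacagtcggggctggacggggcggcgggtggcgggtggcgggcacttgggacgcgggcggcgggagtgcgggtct
Bub3, chr7:131560250-131560399, plus strand: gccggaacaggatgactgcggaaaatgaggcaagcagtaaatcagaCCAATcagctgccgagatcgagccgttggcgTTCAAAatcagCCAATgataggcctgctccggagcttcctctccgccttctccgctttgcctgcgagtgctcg

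All 6 windows hold at least 1 CHR, Bub3 included. At the second listed start of Bub3, not shown, a window of the same size holds none of the marked motifs. The CHR begins at -167 from that start. Of the 39 members, 34 have a promoter entry running from 250 bases before to 50 after the start, and Ccna2, Incenp, Aurkb, Kif20a and Tpx2 have none. A CHR lay in 27 of these 34 genes (79.4%), against 14.3% of the 9034 tested genes with an entry and 17.9% of all 32851 windows. Among listed genes outside the 39, a CHR lay in 46.8% of other spindle and kinetochore genes with an entry. For other mitotic kinase and APC/C genes the share was 20.7%, and for DNA replication genes 12.9%. Within 50 bases of the start a CHR lay in 25 members (73.5%), against 3.89% of tested genes. CCAAT boxes were in 26 of 34 members (76.5%), against 42.6% of tested genes. The related lists had them nearly as often: 59.7% (other spindle and kinetochore), 55.2% (other kinase and APC/C) and 64.5% (DNA replication). The E2F-type site TTCCCGC, on either strand, was in 0 of 34 members, against 9.92% of tested genes and 14 of 31 listed DNA replication genes (45.2%). The variant TTGGCGC was in 5 of 34 members (14.7%) and in 5.03% of tested genes. The CHR was in 11 of 13 members that fell and in 16 of 21 of the rest. Apart from Bub3, the rest also had negative differences, short of the threshold, so this split says little about separation. All motif hits are matches of letters and were not tested as binding sites.

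**Figure D1:**
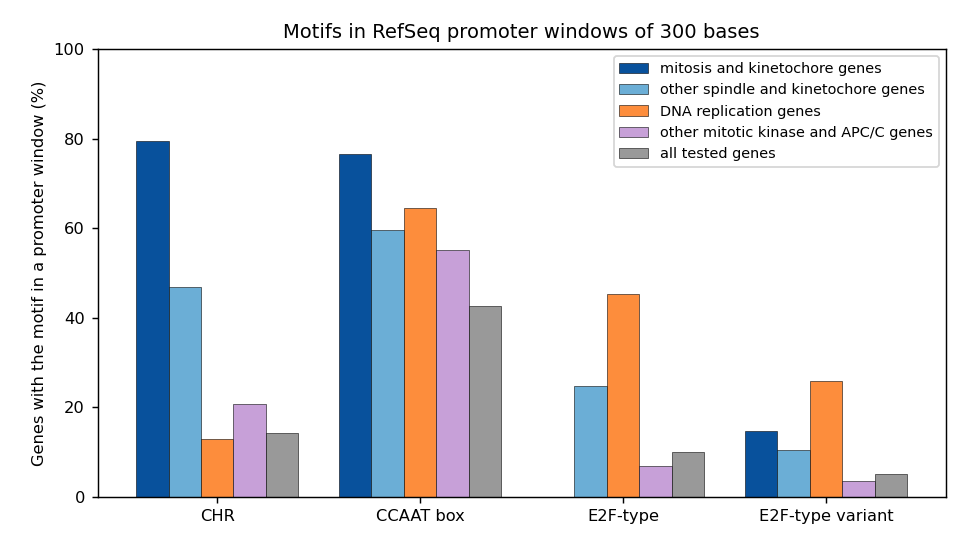
Share of genes (percent, vertical axis) whose promoter window of 250 bases before to 50 after the start holds each motif (horizontal axis), for the mitosis and kinetochore genes, other listed cell cycle genes and all tested genes with an entry. The CHR bar stands at 79.4% for the mitosis and kinetochore genes, 46.8% for other spindle and kinetochore genes and 14.3% for all tested genes.

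Transcripts of 16 of the 39 genes were lower in the libraries labelled knockout and 1, Bub3, was higher. The 16 stood at 9.19% (Ttk) to 33.9% (Cenpa) of control on the log2(value + 1) scale, so each fell more than 2-fold. The other 22 did not pass the threshold. Each had a negative difference, and 10 had an unadjusted limma p under 0.05. With the called members counted, 27 of the 39 had such a p, against 5897 of the 12872 tested genes. Differences were negative for 38 of the 39, against 6581 of all tested genes. Differences are given as log2(normalized count + 1), labelled knockout minus control, ± the moderated SE of limma with 3 libraries a group, and the threshold is a Benjamini-Hochberg adjusted p of 0.05 over all 12872 tested genes. Over all tested genes 33.6% passed, 15.9% lower and 17.7% higher, so the 41.0% of members that were lower exceeded the background share and the 2.56% higher lay below it. Medians were -1.98 for the 39 members and -0.02 for all tested genes. In 24 members all of C217, C242 and C251 lay below all 3 controls, as did 25.0% of tested genes. With 3 libraries against 3, the exact two-sided permutation test of a single gene cannot go below 0.1. In bulk tissue, fewer dividing cells and less RNA per dividing cell cannot be told apart.

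**Figure D2:**
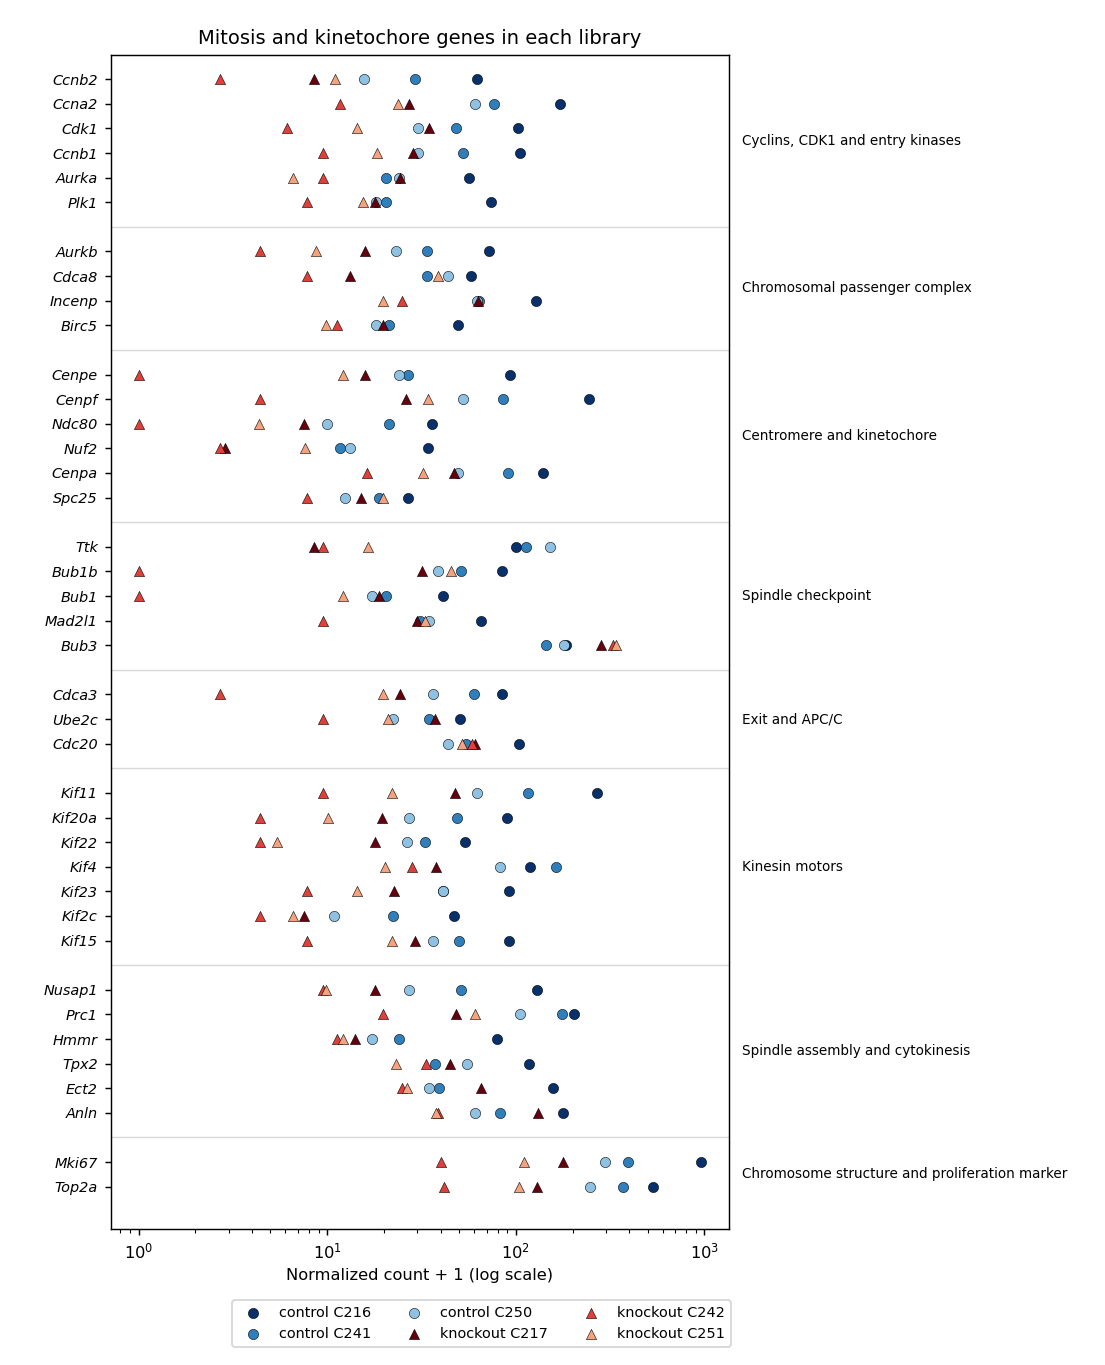
Normalized count + 1 (horizontal log axis) of each of the 39 genes in the 6 libraries, grouped by role, with controls as circles and libraries labelled knockout as triangles. Ttk shows a wide gap between the groups, Bub3 is the gene with all 3 labelled knockout libraries above the controls, and Cdc20 overlaps.

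The count rested on few animals. With a replicate block for each pair of neighbouring animal numbers (C216 with C217, C241 with C242, C250 with C251), limma called 26 members lower, the same 16 and Anln, Aurka, Cdca3, Cdca8, Cdk1, Cenpe, Incenp, Kif15, Kif2c and Ndc80. The block also raised the share of all tested genes called lower to 22.0%, and it is named beside these 10 genes where their adjusted p is given. Leaving out control C216 left 5 members lower (Ttk, Kif4, Top2a, Ccna2 and Prc1), with a member median of -1.59 and 9.11% of all tested genes lower. Leaving out C241 left 7, with a median of -1.93 and 8.71% of all genes lower. Leaving out C242 also left 7, with a median of -1.30 and 12.0% of all genes lower. Comparing C217 alone with the controls left 1, Ttk, with a median of -1.19 and 9.48% of all genes lower.

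**Figure D3:**
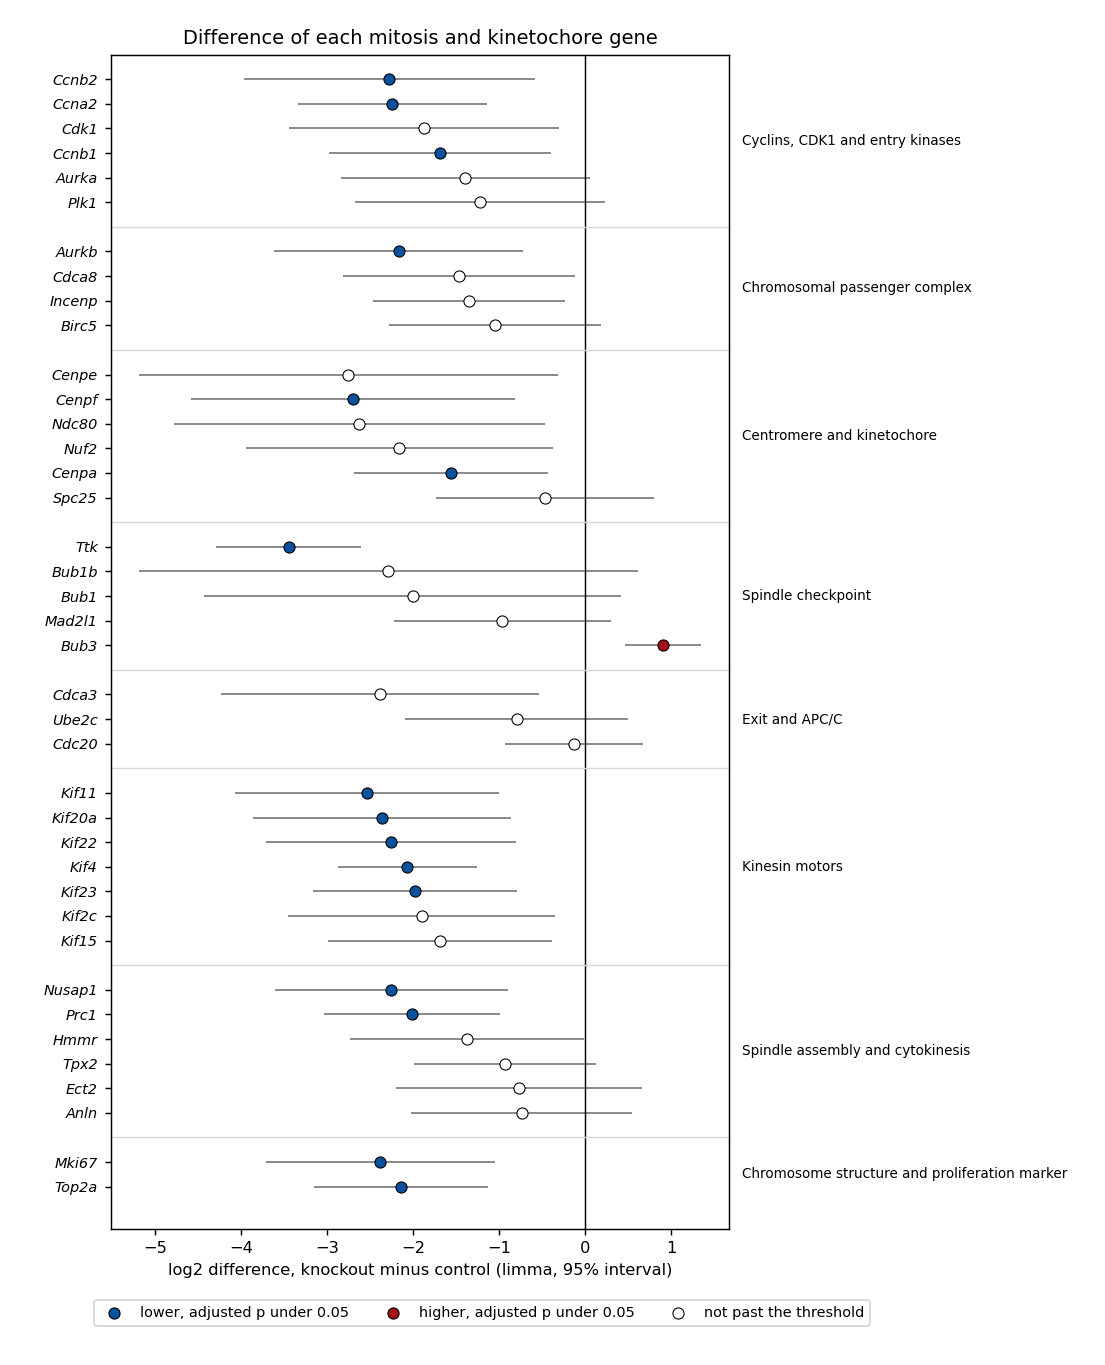
Difference of each gene, labelled knockout minus control (log2, horizontal axis), with its limma 95% interval, ordered by role. Filled points passed the adjusted p of 0.05, and 38 of the 39 points lie left of 0.

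Among the cyclins and entry kinases, 3 of 6 fell: Ccna2, Ccnb2 and Ccnb1. Beside this count and those of the other roles below, 15.9% of all tested genes were called lower. Ccna2, the cyclin of S phase and G2, was at 170.4, 75.4 and 59.4 normalized counts in controls C216, C241 and C250 and at 26.0, 10.7 and 22.7 in C217, C242 and C251. The groups did not overlap, and the lowest value was that of C242. Its difference was -2.24 ± 0.48 (limma adjusted p = 0.00949), and its exons overlap Exosc9 on the opposite strand. Ccnb1, the main cyclin partner of CDK1 at mitotic entry, read 104, 51.3 and 29.4 in the controls and 27.5, 8.51 and 17.4 in the labelled knockout libraries. Controls again lay above, but C217 came within 2 normalized counts of control C250. It passed narrowly, with a difference of -1.69 ± 0.57 (limma adjusted p = 0.0485). Ccnb2, a second B-type cyclin, had 61.2, 28.3 and 14.7 in the controls and 7.48, 1.70 and 9.98 in the other group, without overlap. Its difference of -2.28 ± 0.74 passed with limma adjusted p = 0.0442. Without the block the kinases did not pass: differences were -1.88 ± 0.69 for Cdk1, the mitotic CDK, -1.39 ± 0.63 for Aurka, the spindle pole kinase, and -1.22 ± 0.64 for Plk1, the polo kinase of entry and spindle assembly (limma adjusted p = 0.0645, 0.119 and 0.164). With the replicate block Cdk1 and Aurka were called lower (limma adjusted p = 0.0124 and 0.0333).

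In the chromosomal passenger complex, which corrects faulty attachments at the inner centromere and then acts at the midzone, the kinase subunit Aurkb fell and the other 3 subunits did not pass without the block. Aurkb had 71.0, 32.8 and 22.1 normalized counts in controls C216, C241 and C250 and 15, 3.40 and 7.76 in C217, C242 and C251. All 3 controls were higher, with C216 far above the other 2. Its difference was -2.17 ± 0.64 (limma adjusted p = 0.0307). Its partners Incenp, the scaffold, Cdca8 (borealin) and Birc5 (survivin) had differences of -1.35 ± 0.49, -1.47 ± 0.59 and -1.05 ± 0.54 (limma adjusted p = 0.0623, 0.0856 and 0.163), and their groups overlapped. With the replicate block Incenp and Cdca8 were called lower (limma adjusted p = 0.00616 and 0.0404).

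Of the 6 centromere and kinetochore genes, Cenpa and Cenpf fell. Cenpa, the histone H3 variant that marks the centromere, stood at 138, 90.3 and 48.2 normalized counts in the controls and 45.8, 15.3 and 31.0 in C217, C242 and C251. The highest labelled knockout library, C217, was just below the lowest control, C250. Its difference was -1.56 ± 0.49 (limma adjusted p = 0.0405). Cenpf, a large kinetochore and nuclear matrix protein of G2 and M phase, was at 243, 84.1 and 51.5 in the controls and 25.2, 3.40 and 33.3 in the other group. Control C216 was well above the other controls, and C242 was at about 2 estimated reads. The difference was -2.70 ± 0.82 (limma adjusted p = 0.0355). Cenpe, a kinetochore motor, had the larger difference of -2.76 ± 1.07 but passed only with the replicate block (limma adjusted p = 0.0767 without it and 0.0196 with it). It was at 92.1, 25.7 and 22.9 in the controls and 15, 0 and 11.1 in the other libraries. In C242, where it is listed at 0, 3 reads are worth 5.10 normalized counts. The NDC80 complex, which binds microtubules end on, had 3 members on the list. Ndc80 (-2.62 ± 0.95) and Nuf2 (-2.16 ± 0.78) did not pass (limma adjusted p = 0.0621 and 0.0632), although neither gene's groups overlapped. Ndc80 passed with the replicate block (limma adjusted p = 0.0392). Spc25 overlapped, with a difference of -0.47 ± 0.56 (limma adjusted p = 0.533).

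The spindle checkpoint genes did not move together. Ttk (MPS1), the kinase that starts checkpoint signalling at unattached kinetochores, had 99.7, 112 and 150.4 normalized counts in controls C216, C241 and C250 and 7.48, 8.51 and 15.5 in C217, C242 and C251. The 2 groups were far apart, and the control with the highest level was C250, not C216. Ttk fell to 9.19% of control, a difference of -3.44 ± 0.37 (95% interval -4.29 to -2.60, limma adjusted p = 0.000497). Ttk was the one member whose call held in all 15 alternative settings, and the one called in C217 alone. Bub3, the WD40 protein that carries BUB1 and BUBR1 to kinetochores, went the other way. Its levels were 183, 143 and 179.8 in the controls and 280.4, 328 and 337 in C217, C242 and C251. All 3 labelled knockout libraries were above all 3 controls, with little spread in either group. Bub3 rose 1.87-fold, a difference of 0.90 ± 0.19 (95% interval 0.46 to 1.35, limma adjusted p = 0.00942). With library totals set equal it lost its call (0.56, limma adjusted p = 0.076), and C217 alone gave 0.74 (limma adjusted p = 0.102). The remaining 3 did not pass: Bub1, -2.00 ± 1.06, Bub1b (BUBR1), -2.29 ± 1.27, and Mad2l1 (MAD2), -0.96 ± 0.55 (limma adjusted p = 0.172, 0.189 and 0.203). Bub1 and Bub1b are listed at 0 in C242. Bub1b was at 83.8, 50.5 and 37.6 in the controls and 30.8, 0 and 44.4 in C217, C242 and C251, so C251 lay above control C250.

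None of the 3 exit and APC/C genes passed. Cdc20, the activator that the checkpoint restrains, was at 103, 53.1 and 42.5 normalized counts in the controls and 59.8, 57.8 and 51.0 in the libraries labelled knockout. Only control C216 stood apart, and the other 5 libraries lay between 42.5 and 59.8. Its difference was -0.13 ± 0.35 (limma adjusted p = 0.794), and its 95% interval ran from 52.5% to 159% of control. Ube2c, the E2 enzyme of the APC/C, had a difference of -0.80 ± 0.57 (limma adjusted p = 0.297). Cdca3, an APC/C substrate that acts at mitotic entry, missed the threshold narrowly with -2.38 ± 0.81 (limma adjusted p = 0.051), and passed it with the replicate block (limma adjusted p = 0.0231). Its groups did not overlap, at 83.8, 59.3 and 35.1 in the controls and 23.4, 1.70 and 18.9 in C217, C242 and C251.

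Among the kinesin motors, 5 of 7 fell, and in all 7 the labelled knockout libraries lay below every control, as in 25.0% of tested genes. Kif4, a chromokinesin of the chromosome arms and midzone encoded on the X chromosome, stood at 118, 162 and 81.8 normalized counts in controls C216, C241 and C250 and 36.9, 27.2 and 19.4 in C217, C242 and C251. Its highest control was C241 and its highest labelled knockout library was C217. The difference was -2.07 ± 0.35 (limma adjusted p = 0.00358), and its exons overlap Pdzd11 on the opposite strand. Kif23 (MKLP1), a subunit of the centralspindlin complex, was at 90.6, 39.8 and 40.1 in the controls and 21.5, 6.81 and 13.3 in the other group. Controls C241 and C250 were alike, and C216 was more than 2-fold above them. Kif23 fell, with a difference of -1.98 ± 0.52 (limma adjusted p = 0.0205). Kif11 (Eg5), which pushes the spindle poles apart, had 269, 115 and 61.3 in the controls and 46.7, 8.51 and 21.1 in C217, C242 and C251. The spread within each group was wide, with C216 far above C250 and C217 far above C242. The difference was -2.54 ± 0.67 (limma adjusted p = 0.0212). Kif20a (MKLP2), which brings the passenger complex to the midzone, read 88.4, 47.5 and 26.0 and 18.5, 3.40 and 9.03 in the same order. Its lowest control, C250, was above its highest labelled knockout library, C217. Its difference was -2.36 ± 0.66 (limma adjusted p = 0.0253), and it shares exon bases with Cdc23 on the opposite strand. The chromokinesin Kif22, which overlaps Gm31749 on the opposite strand, fell as well, -2.26 ± 0.64 (limma adjusted p = 0.0267). Kif15, a motor that assists Kif11, and Kif2c (MCAK), a microtubule depolymerase, lay just outside the threshold at -1.68 ± 0.57 and -1.90 ± 0.68 (limma adjusted p = 0.0503 and 0.0602), and inside it with the replicate block (limma adjusted p = 0.0169 and 0.0416). Kif15 was at 91.4, 48.7 and 35.1 normalized counts in the controls and 28.0, 6.81 and 21.1 in C217, C242 and C251. Kif2c was at 46.1, 21.3 and 9.81 and 6.54, 3.40 and 5.54 in the same order. Ccnb2 and Ccnb1 were the members just inside it.

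Of the 6 spindle assembly and cytokinesis genes, Prc1 and Nusap1 fell. Prc1, which bundles the antiparallel microtubules of the midzone, had 204, 175 and 105 normalized counts in the controls and 47.4, 18.7 and 59.7 in C217, C242 and C251. All controls were above all labelled knockout libraries, and C242 was the lowest. Its difference was -2.01 ± 0.45 (limma adjusted p = 0.0107), and Rccd1 overlaps its exons on the opposite strand. Nusap1, a microtubule-binding protein of the spindle near chromatin, was at 128, 50.5 and 26.2 and 16.8, 8.51 and 8.87 in the same order. Control C250 was nearer to C217 than to control C216. The difference was -2.25 ± 0.59 (limma adjusted p = 0.021), and Oip5 overlaps its exons on the opposite strand. Hmmr, a spindle pole protein, had no overlap between its groups but did not pass (-1.37 ± 0.60, limma adjusted p = 0.107). Tpx2, the activator of Aurora A, had a difference of -0.93 ± 0.46 (limma adjusted p = 0.149). The cytokinesis genes Anln, an actin-binding scaffold of the cleavage furrow, and Ect2, the RhoA exchange factor, had -0.74 ± 0.56 and -0.77 ± 0.63 (limma adjusted p = 0.327 and 0.364), and Anln passed with the replicate block (limma adjusted p = 0.0384). Both showed the same layout, in which C217 lay above controls C241 and C250: Anln was at 177, 81.5 and 59.7 in the controls and at 131, 37.4 and 36.6 in C217, C242 and C251.

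Both general markers fell. Top2a, the topoisomerase that resolves sister chromatids, was at 529, 368 and 248 normalized counts in the controls and 129, 40.8 and 103 in C217, C242 and C251. The lowest control, C250, was nearly 2-fold above the highest labelled knockout library, C217. Its difference was -2.14 ± 0.44 (limma adjusted p = 0.00789), and the small gene Gm23451 shares exon bases with it on the same strand. Mki67, whose protein Ki-67 coats mitotic chromosomes and marks cycling cells, was at 959.7, 392 and 296 in the controls and 178, 39.1 and 109.8 in the other group. Control C216 was more than 2-fold above the other controls, and C242 was the lowest library. Mki67 stood at 19.2% of control, a difference of -2.38 ± 0.58 (limma adjusted p = 0.0159).

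The members varied together within each group, not only between groups. Control C216, the only library labelled wild type, was the highest control for 37 of the 39 members, against 33.0% of all tested genes, and the exceptions were Kif4 (C241) and Ttk (C250). Over the members C216 was a median 2.47-fold above the mean of C241 and C250, a log2 difference of 1.30, against -0.02 over all tested genes. The order C216, C241, C250 from high to low held for 30 members, against 18.5% of tested genes. With 1 control labelled wild type, genotype and animal cannot be told apart there. Among the labelled knockout libraries, C242 was the lowest for 30 members, against 34.2% of tested genes. C217 lay below all 3 controls for 27 members, against 38.6% of tested genes. Against the control mean the median member stood at -1.19 in C217, -2.69 in C242 and -1.52 in C251 (log2). Between adjacent animal numbers the medians were -1.89 (C217 minus C216), -2.49 (C242 minus C241) and -0.80 (C251 minus C250), and 35 members were lower in all 3 of these pairs, against 36.6% of tested genes. Summed over the 39 genes, the controls held 5248, 2771 and 2106 normalized counts and C217, C242 and C251 held 1634, 797 and 1261. Every labelled knockout sum was below every control sum.

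Library C242, the lowest for most members, was also the shallowest. An estimated 6458224 to 9118503 reads per library were assigned to genes. The median member had 121, 53 and 41 estimated reads in the controls and 27, 5 and 17 in C217, C242 and C251, and 29 members had under 10 in C242. The median SE was 0.59 for members and 0.284 for all tested genes. Of the 39 members, 4 (Cenpe, Ndc80, Bub1 and Bub1b) are listed at 0 in C242, and in the other 5 libraries none is.

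Markers of the basal layer, where most division takes place, also varied between animals. The 13 basal keratinocyte markers had a mean log2 level of 11.13, 10.56 and 9.43 in controls C216, C241 and C250, the same order as the members, and of 11.10, 9.71 and 9.39 in C217, C242 and C251. All 13 were detected in every library. Between groups, Krt14 rose (3.21 ± 0.61, limma adjusted p = 0.00547), Krt15 fell (-6.84 ± 0.76, limma adjusted p = 0.0006) and the other 11 did not pass, with a list median of -0.41. Trp63, the transcription factor p63 of basal keratinocytes, was at 2616, 3762 and 1700.2 normalized counts in the controls and 2213, 1958 and 1133 in the labelled knockout libraries. Its groups overlapped (-0.59 ± 0.34, limma adjusted p = 0.203). The mean log2 level gives each marker equal weight, and the summed level, in which Krt14 and Krt15 moved in opposite directions, ordered the libraries otherwise: 54740, 36870 and 18870 normalized counts in the controls and 96690, 129500 and 34130 in C217, C242 and C251. Libraries C217 and C216 had nearly the same mean log2 basal level, with mean member levels of 4.78 and 6.62. The same held for C251 and C250, with 4.34 and 5.23. It did not hold for C242 and C241, whose basal levels were 9.71 and 10.56 and whose mean member levels were 3.164 and 5.625. A fit with the basal mean as a covariate, chosen after the data were seen, called 17 members lower, of which 15 were among the 16. It called 16.8% of all tested genes lower and 18.7% higher. The member median moved to -1.72, from -1.98 without the covariate. Cdk1 and Incenp entered, and Ccnb2 dropped out. The covariate includes Krt14 and Krt15, which themselves differed between the groups, so the fit cannot separate basal cells from the label. The part of basal cells in the members' differences was not tested.

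**Figure D4:**
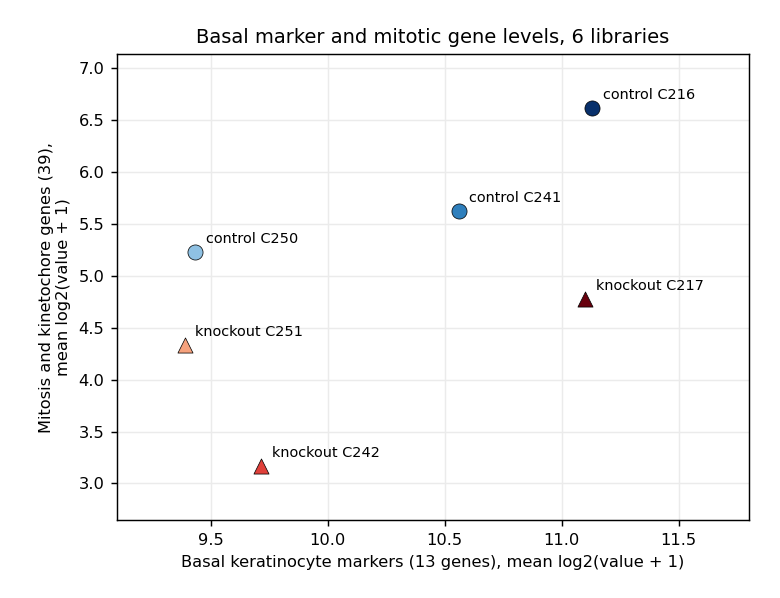
Mean log2(value + 1) of the 39 mitosis and kinetochore genes (vertical axis) against that of 13 basal keratinocyte markers (horizontal axis), 1 point per library. Library C217 and control C216 have mean log2 basal levels of 11.10 and 11.13 and mean member levels of 4.78 and 6.62. Library C251 and control C250 have 9.39 and 9.43 and 4.34 and 5.23. Library C242 and control C241 differ in basal level, at 9.71 and 10.56, and have 3.164 and 5.625. Summed basal levels, not plotted, were higher in each labelled knockout library than in the control with the adjacent animal number.

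Markers of other cell types were read in the same fit, in which 17.7% of all tested genes were called higher and 15.9% lower. All 8 melanocyte markers rose, with a list median of 2.58 and summed levels of 478 to 711 normalized counts in the controls and 3104 to 4978 in C217, C242 and C251. Of 5 measured fibroblast markers 3 rose (Col1a1, Col1a2 and Col3a1), with sums of 164 to 433 and 459 to 573. Of 10 suprabasal markers 3 rose (Tgm1, Dsc1 and Sbsn), and sums of 800400 to 896500 and 595800 to 892300 overlapped. Of 9 hair follicle markers 2 rose (Krt17 and Sox9, 22.2%) and Krt79 fell (11.1%), near the shares of all tested genes. Their list median was 0.04, with 4 negative differences. Their sums of 3181 to 3704 and 23100 to 72090 followed Krt17, which stood at 1166, 1286 and 1234 in the controls and 22268, 68115 and 20097 in C217, C242 and C251. Of 5 T cell and Langerhans cell markers 1 fell (Cd3e), with sums of 128 to 306 in the controls and 68.2 to 432 in the other group. Of 3 myeloid markers Lyz2 rose and Csf1r fell, with sums of 193 to 324 and 101 to 226. The 3 globin genes did not pass, at sums of 13.6 to 112 and 0.935 to 695, highest in C242. Pecam1, the 1 endothelial marker in the table, did not pass either, at 2.66 to 5.72 and 6.54 to 59.5. Sex-linked transcripts differed between libraries as well: Xist, expressed from the inactive X chromosome, was at 0, 0.885 and 3.27 in the controls and 1.87, 5656 and 4758 in C217, C242 and C251, and the Y-linked Ddx3y at 574, 646 and 544 and 323, 0 and 0. High Xist with Ddx3y at 0 occurred in C242 and C251 only. In those libraries sex, as read from these transcripts, and the knockout label cannot be told apart. C217 was the only labelled knockout library with the controls' pattern, and there the median member stood at -1.19 against the control mean (log2). On that scale controls C216, C241 and C250 themselves stood at 0.87, -0.18 and -0.61. In C217, 27 of the 39 members lay below all 3 controls, and 4 lay above the control mean. The part of sex and of these cell types in the members' differences was not tested.

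Genes of the same machinery outside the 39 were counted in the same fit. Of 28 other kinetochore and centromere genes measured, 3 fell and 0 rose, with a median difference of -0.66, and 12 more on that list are not in the table. The share lower, 10.7%, was under the 15.9% of all tested genes. Cenpi, a centromere subunit encoded on the X chromosome, fell from 98.9, 69.1 and 56.4 normalized counts in the controls to 13.1, 10.2 and 9.98 in C217, C242 and C251. The groups were far apart (-2.62 ± 0.36, limma adjusted p = 0.00139). Sgo1, which protects centromeric cohesion, fell as well, with a difference of -2.36 ± 0.64 (limma adjusted p = 0.0236).

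Of 44 other spindle, condensin and cytokinesis genes, 13 fell (29.5%) and 1 rose (2.27%), with a median of -1.11, against 15.9% lower and 17.7% higher over all tested genes. Fam83d, which recruits casein kinase 1 to the spindle, had 579, 748 and 1099 normalized counts in the controls and 50.5, 44.2 and 129.7 in C217, C242 and C251. As for Ttk, control C250 was the highest control, and the groups were far apart (-3.54 ± 0.41, limma adjusted p = 0.000704). Racgap1, the partner of Kif23 in centralspindlin, was at 150.3, 96.5 and 87.5 and 33.6, 5.10 and 19.96 in the same order. All controls lay above (-2.73 ± 0.60, limma adjusted p = 0.01). Espl1 (separase) and Ncaph2, a condensin II subunit, fell by 0.98 ± 0.23 and 0.70 ± 0.17 (limma adjusted p = 0.0139 and 0.017). The gene that rose, Psrc1, a microtubule-binding protein known as a p53 target, was picked out after its value was seen (1.44 ± 0.37, limma adjusted p = 0.0196).

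Other mitotic kinases, phosphatases and APC/C genes had a median of -0.34, and 3 of 35 fell (8.57%, under the 15.9% of all tested genes) and 0 rose. Anapc5, a scaffold subunit of the APC/C, was at 741, 666 and 635 normalized counts in the controls and 404, 293 and 322 in C217, C242 and C251. The spread within each group was small and the groups lay apart (-1.01 ± 0.19, limma adjusted p = 0.00499). Cdc16, another subunit, and Fbxo5 (EMI1), an APC/C inhibitor, fell by 0.82, with a 95% interval of -1.31 to -0.33, and by 3.08, with -5.41 to -0.75 (limma adjusted p = 0.0204 and 0.0471). DNA replication and S phase genes had a median of -0.38, and 4 of 33 fell and 0 rose: Mcm6, a helicase subunit, -1.84 ± 0.49, Pola1, the primase-bound polymerase, -1.07 ± 0.34, Uhrf1, a maintenance methylation factor, -1.45 ± 0.46, and Gins4, a helicase cofactor, -0.94 ± 0.31 (limma adjusted p = 0.0226, 0.0399, 0.0422 and 0.0458). The share lower, 12.1%, was near the 15.9% of all tested genes. Whether the lists differ from each other was not tested.

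**Figure D5:**
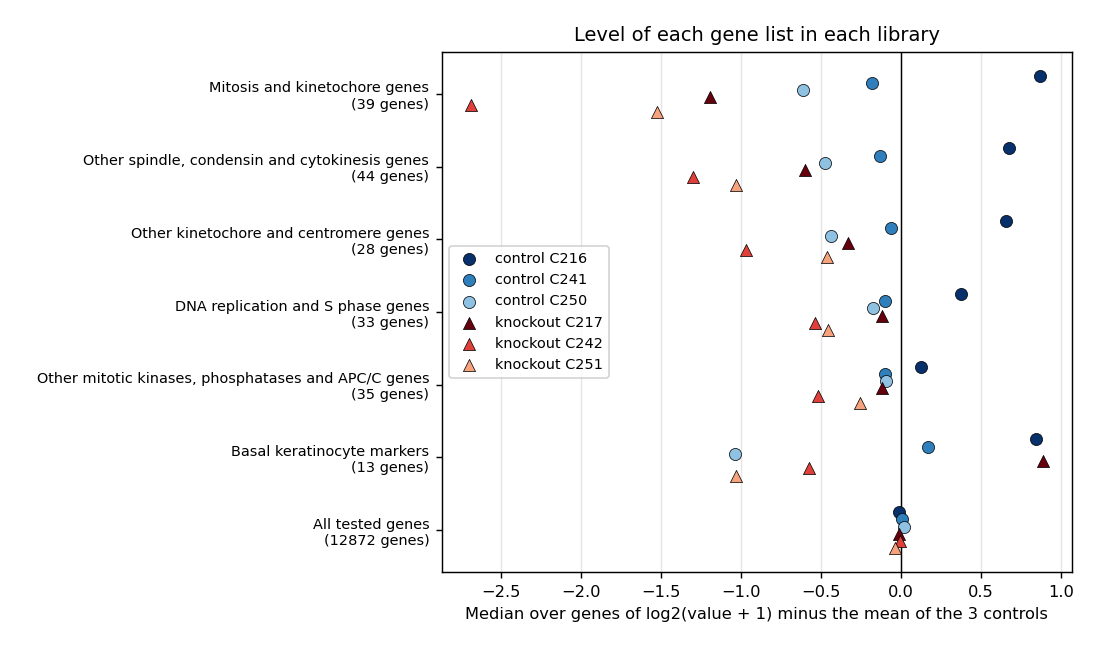
Level of each gene list in every library, as the median log2 distance of its genes from their control mean (horizontal axis), with controls as circles and libraries labelled knockout as triangles. The mitosis and kinetochore genes reach -2.69 in library C242 and 0.87 in control C216, while the DNA replication genes stay between -0.54 and 0.38.

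Among 33 cell cycle transcription factors, G1 cyclins and CDK inhibitors, 5 rose (15.2%) and 3 fell (9.09%), near or under the 17.7% and 15.9% of all tested genes. Cdkn1a (p21), the CDK inhibitor induced by p53, was at 1794, 2798 and 4533 normalized counts in controls C216, C241 and C250 and 8399, 15074 and 18574 in C217, C242 and C251. Every labelled knockout library was above every control, and within the controls C216 was lowest and C250 highest, the reverse of most members. Cdkn1a rose 4.69-fold, a difference of 2.23 ± 0.39 (limma adjusted p = 0.00377). Cdkn2c (p18), an inhibitor of CDK4 and CDK6, fell from 120, 61.1 and 80.8 to 14.0, 17.0 and 24.4 in the same order (-2.16 ± 0.37, limma adjusted p = 0.00345). Of the DREAM complex, which represses CHR promoters in resting cells, the pocket protein gene Rbl2 (p130) fell (-1.23 ± 0.24) and the MuvB subunit Lin37 rose (1.17 ± 0.28, limma adjusted p = 0.0063 and 0.0145). Rbl1 also fell, and E2f4, Cdk2 and Ccnd1 also rose, outside the rule for named genes and picked out after their values were seen. Rbl2 shares exon bases with Aktip and Lin37 with Hspb6, each on the opposite strand. Cdk2 shares exon bases on the opposite strand with the melanocyte gene Pmel, which rose (2.91 ± 0.29, limma adjusted p = 0.00035), so its reads cannot be told apart from those of Pmel. Foxm1, the activator of many G2 and M genes, was at 159, 95.6 and 50.7 in the controls and 85.0, 10.2 and 13.3 in the labelled knockout libraries. Library C217 lay above control C250, and its difference of -1.95 ± 0.76 did not pass (limma adjusted p = 0.0769). Mybl2 (B-MYB), the MuvB partner in S phase, overlapped between groups, at 27.1, 9.33 and 17.2 and 23.3, 18.9 and 10.2 (0.01 ± 0.55, limma adjusted p = 0.988), and E2f1 is not in the table used here.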

How the data were processed

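RNA was extracted from epidermis separated from dermis with a PureLink kit and sequenced as TruSeq RNA libraries, per the labels' protocols. The authors deposited a signal of 0 or more per gene, called normalized counts, for 12894 Ensembl genes in 6 libraries. The submitters' processing notes name TopHat2 2.1.0, Partek 9.0.20.0202 and mm39. How reads were counted, assigned to strands and normalized is not given there. Between 80.4 and 83.5% of low values (up to 20 reads) were whole multiples of 1 step per library, within 0.02 of a step, which left too many fractions for a count model. Steps of 0.755 to 1.70 gave the estimated reads.

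Values were tested as log2(value + 1) with limma 3.58.1 in R 4.3.3 (lmFit, eBayes with a mean-variance trend) in genes above 1 in at least 3 of 6 libraries. P-values were adjusted by Benjamini-Hochberg over 12872 genes at 0.05, and intervals are at 95%. Fold changes are on the log2(value + 1) scale, which understates low genes. The labels do not say that animals with adjacent numbers share a litter. Deviations from the group means correlated at 0.367, 0.228 and 0.362 across genes between adjacent numbers and at -0.281 to -0.072 between others. Such deviations cancel within each group, so positive values for some pairs force negative values for others. The contrast therefore does not establish pairs, and the blocked count is given as an alternative only.

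Members and lists were chosen with earlier results of these data known. Genes named by rule are up to 4 members per role and up to 4 genes per other list that passed with the smallest adjusted p, members not lower, those next to the threshold, and Cdkn1a, Foxm1, Mybl2, Hnrnpu and Trp63. Values per library are given for most of them, and the difference alone for the rest. A gene that the rule names is not reported here. The GRCm38 annotation served for symbols and overlaps of exons: 11 members share exon bases with another gene, 10 of them on the opposite strand. Promoter sequences are from RefSeq GRCm38.p6. P-values set each difference against the spread between these libraries, moderated by the variance trend over all genes.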

Additional observations from a re-analysis of the deposited data

How the results depend on the processing

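Of 583 combinations of a member and an alternative setting, 487 kept direction and side of the threshold, 56 lost the call, 36 gained it and 4 changed sign: Ube2c (0.141), Ect2 (0.132) and Anln (0.455) with C217 alone, and Cdc20 (0.235, in a range of -0.392 to 0.235 over the libraries left out) without C216. With C217 alone, which assumes that it varies like the other libraries, 1 member was lower and 0 higher, with a member median of -1.19. Over all genes 1220 were lower and 1265 higher, and in the other lists 1 kinetochore, 2 spindle and 1 replication gene were called lower and 2 regulators higher. The replication gene is not among the 4 named. Hnrnpu then stood at 0.263, and at 0.065 with the basal covariate. Leaving out 1 library at a time gave 5 to 21 members lower and a median of -2.28 to -1.30. Over all genes it gave 1121 to 2167 lower and 1512 to 2342 higher. In this section, counts for the other lists are given only where they shifted clearly from the main fit, so they are not a full account. For the other lists the counts ran from 1 to 4 lower (kinetochore), 3 to 15 lower and 0 to 2 higher (spindle), 1 to 4 lower and 0 to 1 higher (kinases and APC/C), 2 to 6 higher (regulators) and 0 to 3 lower (replication). Signs also changed there for genes near 0 or with wide spread: Hnrnpu ranged from -0.146 to 0.152, Mybl2 from -0.364 to 0.357, Hba-a2 from -2.56 to 0.945 and Hbb-bs from -3.03 to 0.96.

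The replicate block of neighbouring animal numbers called 26 members lower, 7 kinetochore genes lower and 2 higher, 22 spindle genes, 5 kinase and APC/C genes and 7 regulators lower, while over all genes it called 2829 lower and 2952 higher, against 2049 and 2279 without it. Equal library totals moved the median of all genes to -0.36 and called 1440 genes higher and 3065 lower. There 22 members were lower and 0 higher, with 5 kinetochore genes lower, 0 spindle genes higher, 6 kinase and APC/C genes lower, 6 regulators lower and 1 higher, and Mybl2 at -0.310. Quantile normalization left 2 replication genes lower, and a pseudocount of 5 put Hba-a2 at 0.155. In the other settings (no filter on low values, a filter at 10, no variance trend) 15 to 17 members were lower. Apart from the counting and depth limits given above, the cause of each shift was not tested. With 5 estimated reads for the median member in C242, levels there carry large counting error.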
